A study of Mus musculus with 10 samples.

Results

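The long arm of human chromosome 5 carries, at 5q31, the genes MALINC1, PURA and IGIP and, downstream of them, the 3 clusters of protocadherin genes. The neighbourhood was taken as all rows of the deposited count table on chromosome 5 with a gene start from 139000000 to 142000000 (hg38) and at least 20 reads summed over the 10 libraries, whatever their biotype. It holds 111 of the 58735 genes of the table, out of 182 rows in the window. Of these members, 86 are protein-coding, 7 are antisense transcripts and 5 are lincRNAs. MALINC1, PURA and IGIP pointed to this window because of their difference between the 2 groups in these same libraries, so their values are a description and carry no test. At the edge of the count minimum, the pseudogenes RPS27AP10 and RPL12P21 were just inside with 20 reads each. Just outside were RF00019 and PCDHA1 with 19 reads each.

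The samples are subcutaneous tumours of LNCaP, a line of human prostate cancer cells that responds to androgen, started from 3000000 cells in NOD.Cg-Prkdcscid Il2rgtm1Wjl/SzJ mice, which lack T, B and NK cells of their own. All mice received 4 weekly intraperitoneal injections of sip-T (sipuleucel-T, a product of cultured human blood cells), 5000000 cells in 100 µl each, and tumours were collected 7 days after the final one. The control group (n = 5) received sip-T with vehicle, and the IL-15 group (n = 5) received sip-T and rhIL-15 (1 µg of the recombinant cytokine, which T and NK cells need). The labels of the IL-15 group name control sip-T with IL-15 injected into the mouse, whereas the study design also speaks of sip-T treated with IL-15, and these cannot be told apart. Nothing in the sources used here gives the donors of the sip-T or the age of the mice, and the labels do not state that each tumour came from its own mouse. The p-values therefore measure the spread between these libraries.

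PURA encodes a protein that binds purine-rich single-stranded DNA and RNA, and loss of 1 of its copies causes a neurodevelopmental disorder. IGIP encodes a small secreted peptide, the IgA-inducing protein, described in dendritic cells, and MALINC1 is a long noncoding RNA read from the strand opposite PURA. The clustered protocadherins are cell-surface adhesion proteins best known from neurons, where each cell uses a few promoters of a cluster and thereby gains a surface identity. In the PCDHA and PCDHG clusters each variable first exon is spliced to constant exons shared by the cluster, whereas PCDHB genes are single-exon genes. Promoter choice depends on DNA methylation and on looping by CTCF and cohesin.

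Read totals were similar in the 2 groups, about 15582200 ± 1146100 reads (SD) in the control libraries and 15028700 ± 2438060 in the IL-15 libraries. Levels within a gene are given below as CPM, reads per 1000000 of the library total after trimmed-mean (TMM) scaling, and 3 reads correspond to 0.159 to 0.221 CPM. Levels between genes are given as the deposited FPKM, which also divide by the length of the gene. Members held 0.231% of all reads in the control libraries on average and 0.247% in the IL-15 libraries. KLK3, the gene of prostate-specific antigen and a marker of LNCaP, measured 4743 ± 1071 CPM (SD, n = 5) in the control and 5584 ± 1336 CPM in the IL-15 tumours. These are bulk samples, in which fewer cells of a type and less RNA per cell cannot be told apart.

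MALINC1, PURA and IGIP were all higher in the IL-15 tumours, and the same 4 of 5 tumours carried the difference. MALINC1 (chr5:140072857-140108630, minus strand) measured 6.47, 2.68, 3.15, 3.72 and 3.07 CPM in control tumours 1 to 5 and 15.7, 4.89, 16.9, 10.2 and 14.5 CPM in IL-15 tumours 1 to 5. Its log2 fold change was 1.70 ± 0.34 (SE). IL-15 tumour 2 lay inside the control range, below control tumour 1, while the other 4 IL-15 tumours were above every control.

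PURA (chr5:140107777-140125619, plus strand) measured 57.0, 39.9, 40.5, 36.9 and 26.5 CPM in the control tumours and 87.2, 42.3, 81.1, 73.6 and 87.8 CPM in the IL-15 tumours, a log2 fold change of 0.89 ± 0.22. IGIP (chr5:140125935-140129392, plus strand) measured 8.71, 4.94, 4.79, 5.64 and 4.86 CPM in the controls and 16.5, 8.08, 15.5, 12.7 and 12.6 CPM in the IL-15 tumours, a log2 fold change of 1.17 ± 0.25. For both genes, as for MALINC1, IL-15 tumour 2 was the lowest of its group and control tumour 1 the highest of its group, and the groups overlapped only through this pair. Without control tumour 1 the log2 fold changes were 1.97 for MALINC1, 1.05 for PURA and 1.36 for IGIP, and without IL-15 tumour 2 they were 1.90, 1.04 and 1.31.

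**Figure D1:**
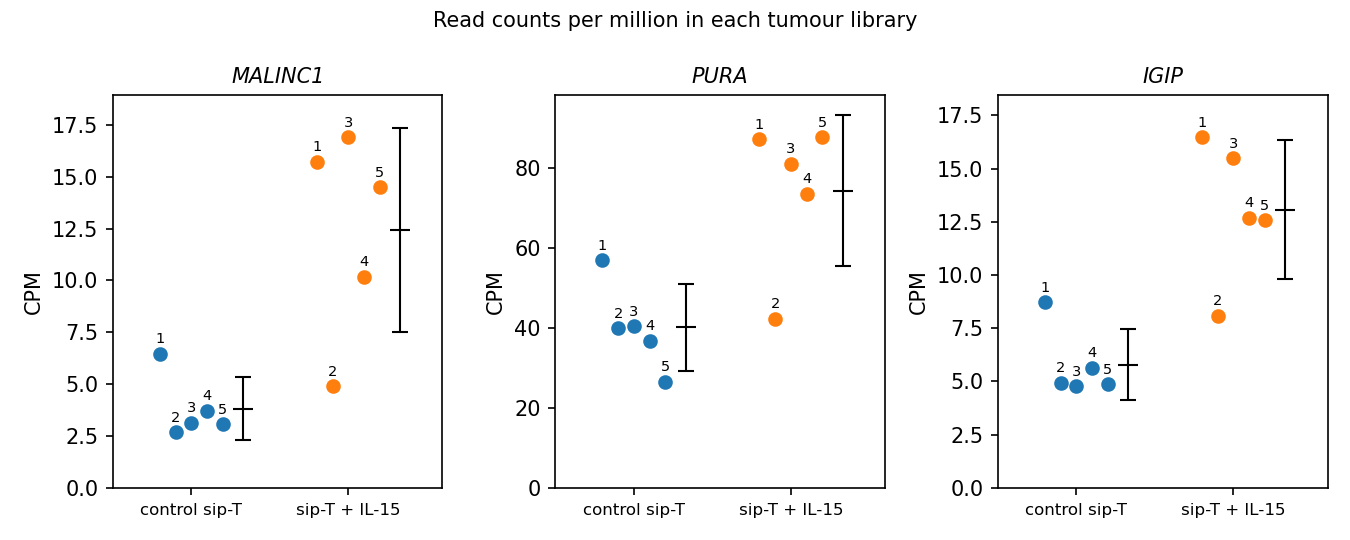
Level of MALINC1, PURA and IGIP (CPM, linear axis from 0) in the 5 control and 5 IL-15 tumours, each point a tumour numbered by its replicate, with the group mean and SD beside the points. In all 3 panels IL-15 tumour 2 sits at or below control tumour 1, and the other IL-15 tumours sit above every control.

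Per length of transcript the 3 genes were at similar modest levels. PURA had 3.00 ± 0.80 FPKM (SD, n = 5) in the control and 5.49 ± 1.39 FPKM in the IL-15 tumours, IGIP 1.52 ± 0.42 and 3.39 ± 0.82 FPKM, and MALINC1 1.01 ± 0.39 and 3.25 ± 1.27 FPKM. The order PURA, IGIP, MALINC1 held in both group means, although IGIP and MALINC1 in the IL-15 tumours differed by less than their spread. By comparison, the most abundant member per length, TAF7, a subunit of the general transcription factor TFIID, had 42.5 ± 8.12 and 47.2 ± 5.74 FPKM.

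MALINC1 and PURA do not count as independent, because their annotated spans overlap by 854 bases on opposite strands and the sources used here do not say whether the counting used strand. Reads from the shared stretch cannot be told apart between the genes. IGIP begins 315 bases after the annotated end of PURA on the same strand. The number of MALINC1 reads per PURA read was 0.0951 ± 0.0217 (SD, n = 5) in the control tumours and 0.162 ± 0.0361 in the IL-15 tumours. IGIP reads per PURA read were 0.146 ± 0.0262 and 0.177 ± 0.0206. Within single tumours the MALINC1 ratio ranged from 0.0673 to 0.116 in the controls and from 0.116 to 0.208 in the IL-15 group, so that the groups met only at the highest control and the lowest IL-15 tumour, whereas the IGIP ratio overlapped broadly. With the reads of MALINC1 and PURA summed to 1 locus, the log2 fold change was 0.98 ± 0.23.

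Signs of other cells and of library composition moved with these genes in part. The summed level of 17 T cell markers was 6.85, 6.92, 24.2, 5.29 and 7.43 CPM in the control tumours and 55.3, 6.49, 33.8, 30.4 and 9.34 CPM in the IL-15 tumours. IL-15 tumour 2, the lowest of its group for MALINC1, PURA and IGIP, also had the lowest T cell sum of its group. IL-15 tumours 1, 3 and 4 lay above every control for that sum and for the 3 genes. Control tumour 1, the highest control for the 3 genes, had a T cell sum below those of control tumours 2, 3 and 5. Control tumour 3, with 24.2 CPM of T cell markers, had 3.15 CPM of MALINC1, and IL-15 tumour 5, with 9.34 CPM, had 14.5 CPM of MALINC1. The summed level of 10 NK and cytotoxic markers ran from 0.989 to 15.5 CPM in the controls and from 3.77 to 38.8 CPM in the IL-15 tumours. Of the B and plasma cell markers, MS4A1 had no reads in any of the 10 tumours, CD79A had 16 reads in the controls and 7 in the IL-15 tumours, and MZB1, itself a member, had 2.05 ± 0.71 and 3.06 ± 1.68 CPM. The 6 monocyte and dendritic markers summed to 2.11 ± 0.47 CPM in the controls and 2.30 ± 1.01 CPM in the IL-15 tumours.

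The share of all reads on genes of the antisense biotype, to which MALINC1 belongs, was 0.743, 0.613, 0.534, 0.568 and 0.622% in the control tumours and 0.774, 0.545, 0.723, 0.627 and 0.724% in the IL-15 tumours. Its highest control was again tumour 1 and its lowest IL-15 value again tumour 2. The part of T cell content and of this share in the difference of the 3 genes was not tested.

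Over all 16913 genes that passed edgeR's filter on low counts, none differed between the groups at a Benjamini-Hochberg adjusted p under 0.05 in the edgeR quasi-likelihood test (0%). At an unadjusted p under 0.05 there were 1092 genes (6.46%), 512 higher (3.03%) and 580 lower (3.43%) in the IL-15 tumours. DESeq2 called 7 genes at its adjusted threshold, among them MALINC1 and IGIP, which pointed to the window. Of the 111 members, 84 passed the filter and were tested. The other 27 had too few reads, and since a gene can pass through 1 group alone, counts over the 84 do not stand for all members.

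Among the 84 tested members, 4 had an unadjusted p under 0.05 (4.76%, against 6.46% of all genes), all of them higher in the IL-15 tumours, and 3 of the 4 are the genes that pointed to the window. The remaining one is ANKHD1-EIF4EBP3, a readthrough transcript of 2 neighbouring genes, at 4.58 ± 0.88 CPM in the controls and 6.98 ± 1.83 CPM in the IL-15 group (0.61 ± 0.24 on the log2 scale, edgeR adjusted p = 0.758). Its unadjusted p was 0.0265 by edgeR, and it missed 0.05 without control tumour 3 (0.0684), IL-15 tumour 3 (0.0744) or IL-15 tumour 4 (0.0543), and in limma on log2(FPKM + 0.1) (0.0583). It shares its span with ANKHD1 (0.37 ± 0.25) and EIF4EBP3 (-0.10 ± 0.25), and the locus that sums them with SRA1 had a log2 fold change of 0.02 ± 0.13. The number of members at an unadjusted p under 0.05 was 8 without control tumour 1 and 8 without IL-15 tumour 5 (9.52% each), fits in which 8.61% and 8.06% of all genes had such a p. No member had groups that did not overlap (0 of 84, against 0.662% of all genes, 0.349% with every IL-15 tumour higher and 0.313% with every one lower).

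Along the position, MALINC1, IGIP and PURA had the 3 largest log2 fold changes among the 84 tested members. The window was placed around them because of this same difference, so their rank is no separate result. The median log2 fold change of the tested members was 0.16, with 54 above 0 and 30 below, beside a median of -0.01 and 49.0% above 0 over all genes. Without MALINC1, PURA and IGIP it was 0.15 over 81 members. It was 0.06 without control tumour 3, 0.08 without IL-15 tumour 3, 0.25 without control tumour 4 and 0.29 without control tumour 1, so single tumours moved it by more than 1.5 times. Among the 78 members with a mean of at least 1 CPM over all libraries, a filter that is blind to the groups, the median was 0.14.

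The genes on either side of the window had medians nearer to that of all genes. The 3 Mb before it held 17 tested genes with a median of -0.06, the 3 Mb after it 5 tested genes with a median of 0.03, and the rest of chromosome 5 held 666 tested genes with a median of -0.01. Since members overlap one another, they were also merged into 52 loci of overlapping spans, of which 35 hold a single gene and 17 hold the other 76 members. Of 47 tested loci, 32 were above 0 and 15 below, with a median of 0.15, and the 2 loci at an unadjusted p under 0.05 were MALINC1 with PURA and IGIP, which chose the window. In that fit 6.47% of all rows had such a p. The median was 0.05 without control tumour 3, 0.09 without IL-15 tumour 3, 0.24 without control tumour 4 and 0.26 without control tumour 1. The count was 4 loci without control tumour 4 (8.95% of all rows), 5 without IL-15 tumour 5 (8.04%), and 3 without control tumour 1 (8.60%) or IL-15 tumour 4 (5.58%).

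**Figure D2:**
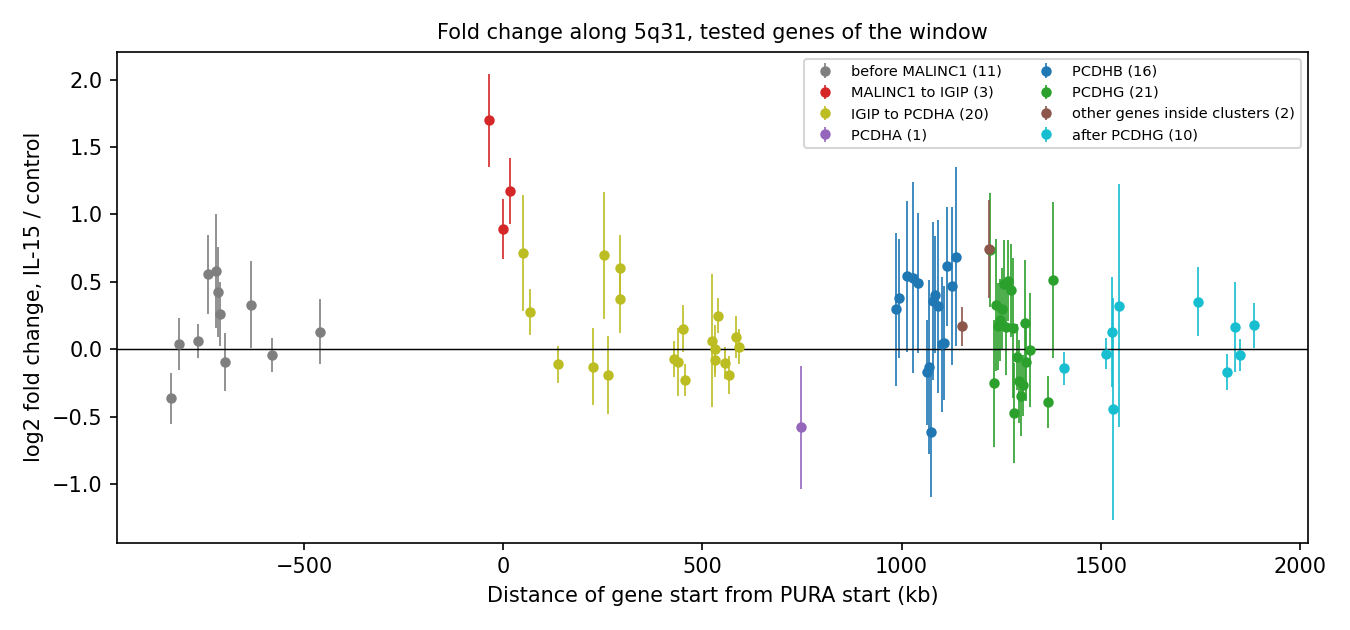
Log2 fold change (IL-15 over control, points with SE bars) of the 84 tested members against the distance of their start from the start of PURA in kb, coloured by segment with the number of tested members in brackets. MALINC1 (1.70), IGIP (1.17) and PURA (0.89), which chose the window by this difference, stand above the members on both sides. The PCDHB genes lie mostly above 0 with wide bars.

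Upstream of MALINC1 lie 20 members in 11 loci, of which 11 were tested, with a median log2 fold change of 0.13 (8 above 0, 3 below), which was 0.03 without control tumour 5 and 0.07 without control tumour 1. CXXC5, a zinc-finger protein of the CXXC family, ends 389 kb before the start of MALINC1 and had 62.7 ± 27.1 CPM in the controls and 68.7 ± 8.38 CPM in the IL-15 tumours (0.13 ± 0.24). The values in this segment ran from -0.36 ± 0.19 for SNHG4, a host gene of small nucleolar RNAs at 227 ± 40.3 and 177 ± 43.9 CPM, to 0.58 ± 0.42 for MZB1, a chaperone of B and plasma cells at 2.05 ± 0.71 and 3.06 ± 1.68 CPM. PAIP2, an inhibitor of the poly(A)-binding protein, had 0.06 ± 0.12, and the ubiquitin-conjugating enzyme gene UBE2D2 had -0.04 ± 0.13. None of the 11 had an unadjusted p under 0.05 in the edgeR test.

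Downstream of IGIP the values lay nearer 0. The first member, the processed transcript AC011379.2, starts 27.9 kb after IGIP and measured 5.19, 2.61, 1.71, 2.38 and 2.64 CPM in the controls and 5.58, 2.60, 2.68, 2.72 and 10.4 CPM in the IL-15 tumours (0.71 ± 0.43). Its group difference lay mainly in IL-15 tumour 5, and the other values overlapped. CYSTM1, a small membrane protein whose gene starts 45.3 kb after IGIP, had 17.4 CPM in the control and 21.1 CPM in the IL-15 tumours on average (0.28 ± 0.17), and the prefoldin subunit gene PFDN1 after it had -0.11 ± 0.14.

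From IGIP to the first PCDHA gene, 20 of 21 members were tested and their median log2 fold change was 0.01, with 11 above 0 and 9 below. This stretch has 9 loci and 37.7% of all reads on members. The largest per-length levels here were those of SLC35A4, a solute carrier at 198 ± 10.9 CPM in the controls and 169 ± 18.8 CPM in the IL-15 tumours (-0.23 ± 0.12), the respiratory complex I subunit gene NDUFA2 (-0.08 ± 0.12) and the splicing factor gene IK, with 132 ± 16.6 and 156 ± 16.1 CPM (0.25 ± 0.13). The histidyl-tRNA synthetase genes HARS and HARS2, which lie head to head, had -0.19 ± 0.14 and 0.09 ± 0.15. Without control tumour 4 the median of the stretch was -0.10.

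The genes of the window were also grouped by role. Of 5 genes listed as immune, 4 were above 0 and 1 below, but the list is loose. It includes the vitamin C transporter gene SLC23A1 (0.56 ± 0.29) and the EGF-receptor ligand gene HBEGF (-0.13 ± 0.29). Neither of these is specific to immune cells. STING (listed as TMEM173) had 0.33 ± 0.32 and the monocyte receptor gene CD14 0.06 ± 0.49. Of 8 chromatin and transcription genes, 6 were above 0 and 2 below, and the histone deacetylase gene HDAC3 stood at -0.03 ± 0.12. PURA is on this list, but it pointed to the window by this same difference, so its value carries no test. Among 4 translation genes 2 were above 0 and 2 below. A list of 4 genes taken as mitochondrial, with 1 above and 3 below, holds HARS2 again from the translation genes. It also holds PFDN1 (-0.11), a prefoldin subunit gene that is not mitochondrial and lay below 0. Among 4 cytoskeleton and growth factor genes, HBEGF again included, 1 was above and 3 below. Both ubiquitin genes were below 0 at -0.04. Apart from PURA, which chose the window, none of these genes had an unadjusted p under 0.05 in the edgeR test.

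The PCDHA cluster had few reads. Its 6 members, which share 1 locus, held 331 reads over all libraries, 60.1% of them on PCDHA10, the only one tested. PCDHA10 measured 3.39, 1.91, 0.479, 1.05 and 0.929 CPM in the control tumours and 1.10, 1.28, 1.25, 0.717 and 0.809 CPM in the IL-15 tumours, a log2 fold change of -0.58 ± 0.46, which was -0.07 without control tumour 1. Control tumours 1 and 2 were the highest and control tumour 3 the lowest, so the IL-15 tumours lay within the control range. Per length its mean over the 10 libraries was 0.0765 FPKM.

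The PCDHB cluster was expressed, and its level differed strongly from tumour to tumour within each group. Summed over its 17 members it measured 121, 36.8, 16.9, 110 and 61.2 CPM in the control tumours and 140, 57.5, 136, 66.4 and 53.7 CPM in the IL-15 tumours. Control tumours 1 and 4 and IL-15 tumours 1 and 3 were high, and control tumours 2 and 3 were low. The groups overlapped from 53.7 to 121 CPM. Control tumours 2 and 3 lay below every IL-15 tumour, and IL-15 tumours 1 and 3 lay above every control. PCDHB14, PCDHB5, PCDHB2, PCDHB13 and PCDHB15 held 75.9% of the reads of the cluster.

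PCDHB5, the PCDHB member with the highest mean FPKM (3.64), measured 22.7, 4.87, 0.547, 15.4 and 12.8 CPM in the controls and 26.5, 6.70, 23.1, 13.5 and 11.7 CPM in the IL-15 tumours. The lowest value, in control tumour 3, rested on 8 reads and was 48.5-fold below the highest, in IL-15 tumour 1. Its log2 fold change was 0.53 ± 0.71, and it was 0.22 without control tumour 3, 0.29 without IL-15 tumour 1, 0.34 without control tumour 2 and 0.95 without control tumour 1. PCDHB14 measured 19.2, 5.79, 4.31, 17.5 and 9.22 CPM in the controls and 23.5, 14.1, 26.2, 14.4 and 7.72 CPM in the IL-15 tumours (0.61 ± 0.44), again with control tumours 1 and 4 and IL-15 tumours 1 and 3 the highest.

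Of the 16 tested PCDHB members, 13 had a log2 fold change above 0 and 3 below, with a median of 0.37, and none had an unadjusted p under 0.05 in the edgeR test. The range was from -0.62 ± 0.48 for PCDHB16 to 0.69 ± 0.67 for PCDHB15. Because the members share the same high and low tumours, their common sign is not 16 separate observations. The median was 0.16 without IL-15 tumour 1, 0.18 without control tumour 3, 0.19 without control tumour 2, 0.19 without IL-15 tumour 3, 0.60 without control tumour 1 and 0.65 without control tumour 4. Control tumour 3 was the lowest library in 10 of the 16 members, and IL-15 tumour 1 was the highest in 8.

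This spread showed in the biological coefficient of variation (BCV), the relative variation between tumours of a group beyond counting error as edgeR estimates it. Its median was 0.55 over the PCDHB members, against 0.26 over all tested genes, and 15 of the 16 members lay above the trend for genes of their abundance, as did 26.5% of all tested genes. In the PCDHG cluster the median was 0.38 and 8 of 21 members lay above the trend. Over all 84 tested members it was 0.35, with 37 above the trend. The median of the MALINC1 to IGIP stretch was 0.30.

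**Figure D3:**
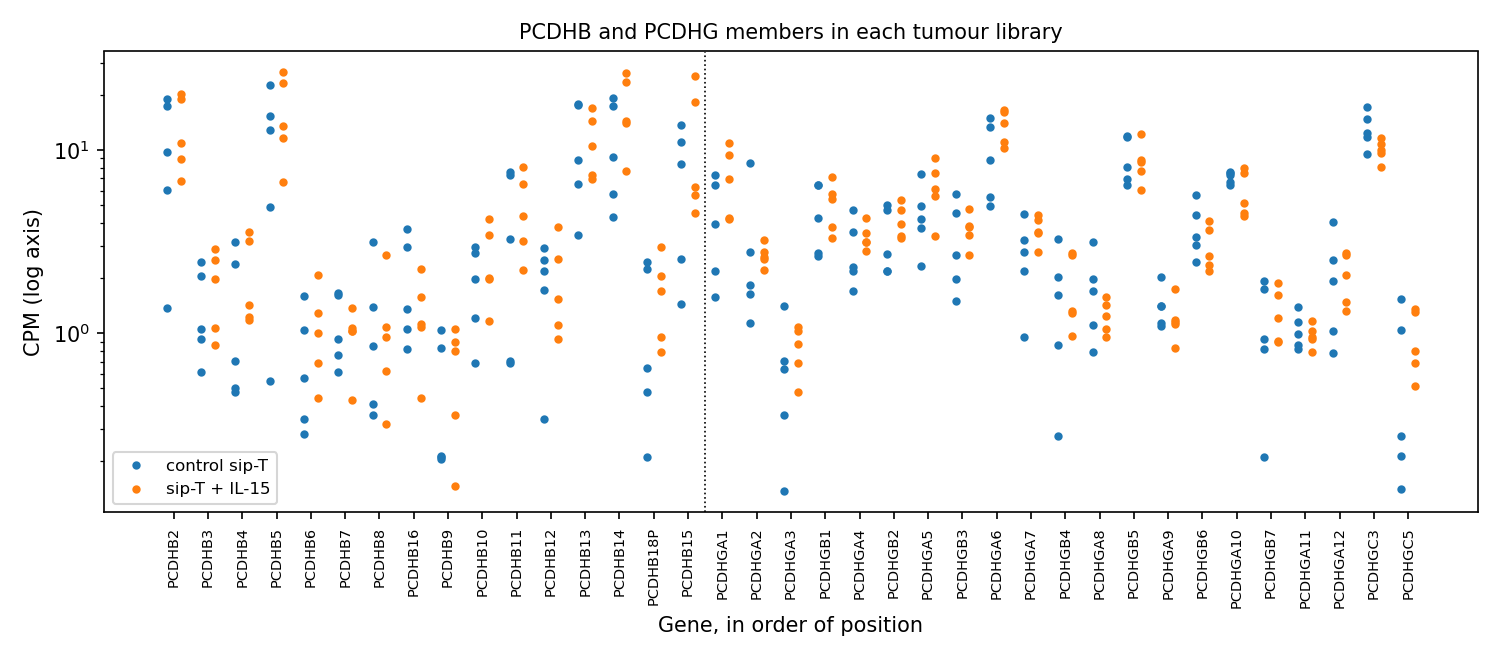
Level (CPM, log axis) of the 16 tested PCDHB and 21 tested PCDHG members in order of position, each point a tumour, control tumours left and IL-15 tumours right of each tick. The points of PCDHB members spread widely within both groups, and the groups overlap for every gene. PCDHB5 runs from 0.547 CPM in control tumour 3 to 26.5 CPM in IL-15 tumour 1, and less abundant members such as PCDHB9 reach lower values.

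The PCDHG cluster was expressed at a similar total level with less spread. Its 24 members summed to 116, 63.9, 59.2, 107 and 66.9 CPM in the control tumours and 91.2, 88.8, 104, 84.3 and 77.0 CPM in the IL-15 tumours. Control tumours 1 and 4 were again the highest, and all 5 IL-15 values lay within the control range. The reads were spread more evenly over genes than in PCDHB, with 51.4% on the 5 leading members PCDHGA6, PCDHGC3, PCDHGB5, PCDHGA10 and PCDHGA1.

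The log2 fold changes of the 21 tested PCDHG members had a median of 0.17, 12 being above 0 and 9 below, and none had an unadjusted p under 0.05 in the edgeR test. All PCDHG members share 1 locus, because their spans end in the same constant exons, and the sources used here do not say how reads of those exons were assigned. Summed to 1 locus of 25 genes, the cluster had a log2 fold change of 0.11 ± 0.19. The median over members was 0.33 without control tumour 1 or without control tumour 4, 0.03 without control tumour 2 or 3, 0.04 without IL-15 tumour 3 and 0.01 without control tumour 5.

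The leading members of the cluster differed in sign. PCDHGA6 measured 14.9, 4.94, 5.54, 13.4 and 8.86 CPM in the controls and 16.1, 16.5, 14.0, 10.2 and 11.0 CPM in the IL-15 tumours (0.51 ± 0.30). PCDHGC3, one of the C-type isoforms that are used more constitutively in neurons, measured 11.8, 14.8, 12.5, 17.2 and 9.51 CPM in the controls and 10.8, 9.99, 9.67, 11.6 and 8.09 CPM in the IL-15 tumours (-0.39 ± 0.19). PCDHGC3 was not especially high in control tumour 1 nor low in control tumours 2 and 3, unlike PCDHGA6, and its groups overlapped. PCDHGB5 had -0.06 ± 0.25 and PCDHGA10 -0.27 ± 0.23.

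The tumours that were high for one of PCDHB14, PCDHB5 and PCDHGA6 were often high for another of them. The 2 genes with the most reads in each of PCDHB and PCDHG were compared, a choice made after the values were seen. Their 6 correlations over the 10 tumours used log2 CPM, with 2-sided permutation p-values adjusted over the 6. Group means were not removed, so the difference between the groups enters r, rho and their p-values. PCDHB14 and PCDHB5 had Pearson's r = 0.839 (permutation p = 0.00056, adjusted p = 0.00312) and Spearman's rho = 0.952 (permutation p = 0.00013, adjusted p = 0.00078), and r was 0.667 without control tumours 2 and 3. PCDHB14 and PCDHGA6 had r = 0.877 (permutation p = 0.00104, adjusted p = 0.00312) and rho = 0.721 (permutation p = 0.0231, adjusted p = 0.0692), and r = 0.692 without those tumours. PCDHB5 and PCDHGA6 had r = 0.736 (permutation p = 0.0149, adjusted p = 0.0298) and rho = 0.600 (permutation p = 0.0741, adjusted p = 0.148), but r was 0.209 without control tumours 2 and 3, so the relation rests on them. PCDHGC3 had r = -0.07 with PCDHB14, -0.20 with PCDHB5 and -0.29 with PCDHGA6, the smallest permutation p among them being 0.413 (adjusted p = 0.620). Without control tumours 2 and 3 these 3 values turned positive, at 0.432, 0.210 and 0.226.

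Other genes that start inside the clusters behaved differently from one another. TAF7, between PCDHB and PCDHG on the opposite strand, measured 119, 111, 115, 168 and 122 CPM in the control tumours and 150, 166, 146, 120 and 132 CPM in the IL-15 tumours (0.17 ± 0.14), and control tumour 4 was the highest of all. The lincRNA AC005618.1, which lies just before PCDHGA1, measured 4.99, 2.97, 2.05, 8.20 and 4.43 CPM in the controls and 8.20, 10.4, 9.80, 5.09 and 4.48 CPM in the IL-15 tumours (0.74 ± 0.36, unadjusted p = 0.0606 and adjusted p = 0.772 by edgeR). Its groups overlapped, with control tumour 4 above IL-15 tumours 4 and 5 and control tumour 1 above IL-15 tumour 5.

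**Figure D4:**
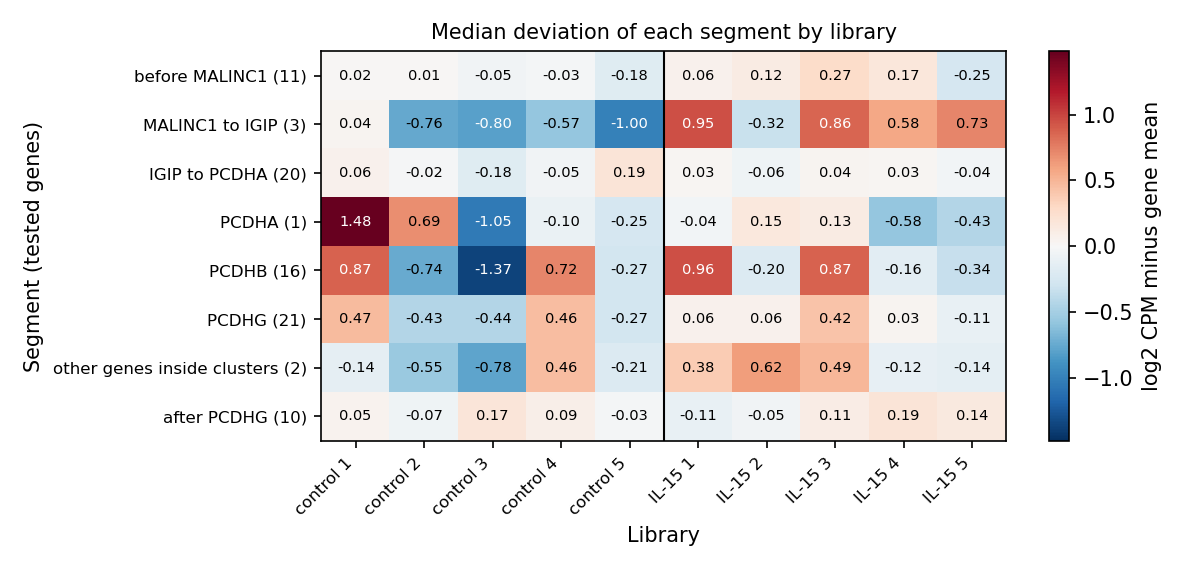
Median over the tested members of each segment (rows, number of tested members in brackets) of log2 CPM minus the mean of the gene over the 10 libraries, in each library (columns). The MALINC1 to IGIP row is above 0 in 4 of 5 IL-15 tumours and in 1 control tumour (0.04), whereas the PCDHB row runs from -1.37 to 0.87 in the controls and from -0.34 to 0.96 in the IL-15 tumours.

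The tumours with high PCDHB levels were not those with high PURA levels in every case. Control tumour 4 had a PCDHB median deviation of 0.72 log2 units beside -0.57 for the MALINC1 to IGIP stretch, and IL-15 tumours 4 and 5 had -0.16 and -0.34 beside 0.58 and 0.73. Control tumours 2 and 3 were low for both, and IL-15 tumours 1 and 3 were high for both. The median deviation of the 20 tested members from IGIP to the PCDHA cluster ran from -0.18 to 0.19 over the 10 tumours, and that of PCDHA10 from -1.05 in control tumour 3 to 1.48 in control tumour 1.

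Beyond the PCDHG cluster 10 of 16 members were tested, with a median log2 fold change of 0.05, 5 above 0 and 5 below. With each tumour left out the median ran from -0.03 to 0.08, and it was below 0 without control tumour 3, control tumour 4 or IL-15 tumour 4. DIAPH1, a formin that assembles actin filaments, had 249 ± 27.0 CPM in the controls and 225 ± 17.7 CPM in the IL-15 tumours (-0.14 ± 0.12). DELE1, a mitochondrial relay of the stress response, had -0.17 ± 0.13, the ubiquitin ligase gene RNF14 -0.04 ± 0.12 and the glucosamine-6-phosphate deaminase gene GNPDA1 0.18 ± 0.16. The protocadherins outside the clusters, PCDH1 and PCDH12, had 0.35 ± 0.26 and 0.17 ± 0.34, PCDH1 being the more abundant with 5.69 ± 1.53 FPKM in the controls and 7.17 ± 2.81 FPKM in the IL-15 tumours.

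Genes elsewhere in the genome that act with the members were read from the same fit. PURB, the close relative of PURA, measured 138 ± 28.9 CPM in the controls and 139 ± 11.6 CPM in the IL-15 tumours (0.01 ± 0.15), and PURG had no reads. Of 11 CTCF and cohesin genes, 2 were above 0 and 9 below with a median of -0.06, and none had an unadjusted p under 0.05 in the edgeR test. CTCF itself had -0.01 ± 0.12 and the cohesin subunit gene RAD21 -0.15 ± 0.16.

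Of 14 genes of chromatin silencing and of DNA methylation, which include TET1, TET2 and TET3 of its removal, 4 were above 0 and 10 below, the TET genes among the latter. The chromatin-compacting ATPase gene MORC2 had an unadjusted p of 0.0401 by edgeR (-0.26 ± 0.11, adjusted p = 0.758), and SMCHD1 had 0.06 ± 0.18. Among 9 tested genes of 21 other protocadherins and large cadherins, 4 were above 0 and 5 below, with none at an unadjusted p under 0.05 in the edgeR test. Of 11 tested partners of the protocadherin tails, 6 were above 0 and 5 below, and CYFIP1, a subunit of the WAVE complex, had an unadjusted p of 0.0301 by edgeR (-0.29 ± 0.12, adjusted p = 0.758). MORC2 and CYFIP1 were each the only gene of their list, 1 of 14 and 1 of 11, at an unadjusted p under 0.05. Over all tested genes 6.46% had such a p, so neither is read as a result about its list.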

How the data were processed

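Libraries of 10 tumours were sequenced by Illumina, per the labels' protocols. The tools named in the submitters' processing notes are HISAT2 2.0.5, fastp, GATK 4.1.1.0, featureCounts 1.5.0-p3 and DESeq2 1.20.0, with hg38 and no settings, strand or handling of mouse reads. The organism is labelled mouse, but the tables list human genes. The deposited count table holds the authors' raw read counts per gene, and the deposited FPKM values are the authors' counts scaled by gene length and by a library factor of unstated making. Group means by the authors were not used. The labels give no batch.

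All 16913 genes kept by filterByExpr (minimum count 10) were fitted together in edgeR 4.0.16 (R 4.3.3, TMM, robust quasi-likelihood). Alternatives used DESeq2 1.42.0, limma 3.58.1, other scalings and filters, FPKM with a pseudocount of 0.1 or 1, merged loci, a replicate block and each tumour left out. Only the main edgeR fit was tested on simulated counts, and the alternatives were not. At an adjusted p under 0.05 it recovered 42.4% of simulated 2-fold changes and 84.8% of 4-fold changes, with 9 false calls. Changes of about 2-fold can therefore be missed.

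The members, gene lists and tests were chosen with earlier results of these data known, and support nothing independently. The text names MALINC1, PURA, IGIP, members at an unadjusted p under 0.05, the 3 highest per segment by FPKM, the 2 with most reads per cluster, those at the count minimum and the 2 smallest p per role list. Other genes were named after their values were seen. Some marker genes are not reported here.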

Additional observations from a re-analysis of the deposited data

Results flagged for a closer look

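In 5 of 70 groups of 5 tumours (35 named members, 2 groups each), the highest tumour stood apart from the other 4 by more than a gap that chance exceeds in about 1 in 20 groups. Control tumour 1 stood apart for MALINC1 at 6.47 CPM, with the other controls between 2.68 and 3.72 CPM, and for IGIP at 8.71 CPM, with the others between 4.79 and 5.64 CPM. Control tumour 5 stood apart for NDUFA2 at 61.9 CPM, with the others between 51.4 and 54.2 CPM, and for HARS at 138 CPM, with the others between 98.3 and 105 CPM. Control tumour 4 stood apart for TAF7 at 168 CPM, with the others between 111 and 122 CPM.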

How the results depend on the processing

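With no filter on low counts edgeR called 1 gene in place of 0, MALINC1, which chose the window. DESeq2 called 7 genes, among them MALINC1 and IGIP, both of which chose the window. Leaving out each tumour in turn gave 3 to 8 members at an unadjusted p under 0.05 and a median log2 fold change from IGIP to the PCDHA cluster of -0.10 to 0.065. All genes at an unadjusted p under 0.05 numbered 611 to 1526 in these fits, 611 without IL-15 tumour 3 and 705 without control tumour 2, and 2756 with no filter. Over the 21 alternatives the median of the members stayed between 0.06 and 0.29, and MALINC1, PURA and IGIP stayed above 0 where they were fitted (MALINC1 in 20 alternatives, since 1 kept protein-coding genes only), with MALINC1 at 1.04 and ANKHD1-EIF4EBP3 at 0.18 on log2(FPKM + 1). Of 30 named members, 5 changed sign in 16 of 627 values. With the replicate number as a block edgeR called 0 genes and the values were 1.65 for MALINC1, 0.88 for PURA and 1.17 for IGIP, and ANKHD1-EIF4EBP3 had an unadjusted p of 0.0688. Whether the numbers pair the tumours was not settled. Over all tested genes, with group means removed, tumours with the same number had correlations of -0.22 to 0.26, and only number 1 matched itself best. A shared donor or processing day with a small effect could pass this check unseen. Depth limits the 27 untested members.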
